A study of Mus musculus with 12 samples.

Results

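Cell cycle and proliferation genes were examined as a group of 38 genes in liver, listed by name and ordered here by the step of the cycle at which their products act. A gene counted as measured when at least 1 probe set carried its symbol and no other, and the probe set with the highest mean over the 12 arrays stood for it. By that rule 36 of the 38 genes were measured, out of 22180 genes in all. Ccne2 and Ccnb1, which encode cyclin E2 and cyclin B1, had no such probe set and are not analysed here in any comparison.

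The cycle runs through G1, in which D-type cyclins release E2F factors from RB proteins, to S phase, in which E2F-driven genes supply the MCM helicase, the PCNA clamp and deoxynucleotides. It then passes to G2 and mitosis, in which Cdk1 with cyclins A and B, the Aurora and Polo-like kinases and the spindle proteins act, many of them under FOXM1 and MYBL2. Adult hepatocytes are mostly quiescent and re-enter the cycle after loss of liver mass or injury, and Kupffer cells and other non-parenchymal cells can divide as well. Lats2 is a kinase of the Hippo pathway, which restrains YAP and TAZ and has been tied to p53 and to cell cycle control.

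Whole livers of male mice, 8 weeks old when the feeding began, were profiled with 1 single-colour Affymetrix array per sample, with 3 arrays, labelled as biological replicates, for each of 4 groups. The groups were Lats2-CKO mice on the high-cholesterol (Paigen) diet with 1.25% cholesterol (Lats2-CKO HCD), WT mice on that diet (WT HCD), Lats2-CKO mice on normal chow without cholesterol (Lats2-CKO ND) and WT mice on that chow (WT ND), each fed for 9 weeks. The mutant is described elsewhere in the labels as a knockout of Lats2, and the labels state neither the deleted part of the gene nor the cells or promoter of the deletion. The comparisons ask what the diet did in each genotype, what the genotype did on each diet, and whether the diet changed these genes differently in the 2 genotypes.

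Values are RMA expression on the log2 scale, so a difference of 1 is a 2-fold difference in signal. Lats2 itself read 4.62 to 4.99 in Lats2-CKO HCD and 5.12 to 5.97 in WT HCD livers, and 4.37 to 4.79 in Lats2-CKO ND and 5.14 to 5.69 in WT ND livers, with no overlap between genotypes. Where its probes lie relative to the deletion is not given in the sources used here. All 9 measured hepatocyte markers lay above background, with a mean of 11.9 to 12.1 on every array. The array WT ND 3 stood apart: its nearest array was Lats2-CKO HCD 3 (r = 0.993 across genes), while its mean correlation with its own group was 0.981. By their medians the arrays fell into a higher and a lower set, with arrays 1 and 2 of both ND groups and array 1 of both HCD groups in the higher one. The Lats2 level of WT ND 3 was 5.69, among the WT arrays. Whether its diet label is right was not tested, and its values went both ways. On it Clec4f, a Kupffer cell gene, read 7.47, outside the HCD range of 7.81 to 8.41. Tek, an endothelial gene, read 6.22, outside the HCD range of 5.36 to 5.96. Cd5l, a macrophage gene, read 9.20 and Pold2, a replication gene, 6.26, both inside their HCD ranges. WT ND 2 also read inside the HCD range for Cd5l, at 9.13, and for Clec4f, at 7.86. These genes were named from fits that counted the array as ND. A wrong label there would change the meaning of every diet value in WT mice and over both genotypes, with or without that array. For the genes described most fully, values are also given without WT ND 3 or by array set.

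Most of these genes gave little signal in any group. Background was set at 3.88, the 95th percentile of the mean levels of 1105 olfactory receptor genes, a family of the nose that serves here as a floor. Of the 36 measured genes, 26 had a mean at or below this bound, as did 58.4% of all genes on the array. The 10 above it were the cyclin D genes Ccnd1 and Ccnd2, the transcription factor gene E2f1, the replication genes Mcm4, Mcm7, Pcna, Rrm1 and Tyms, the mitotic cyclin gene Ccnb2, and Ube2c, which encodes a ubiquitin-conjugating enzyme of the anaphase promoting complex. All 10 genes for spindle, chromosome and midzone proteins lay at or below it, Mki67 and Top2a included, as did 7 of the 8 measured G2 and M kinases, cyclins and transcription factors. Against a lower bound of 3.04, the 30th percentile of all genes, 5 genes were still at or below background: Plk1, Aurkb, Foxm1, Mybl2 and Cenpf. Near background a fold change is compressed, so a difference in these genes could be larger than its log2 value shows.

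**Figure D1:**
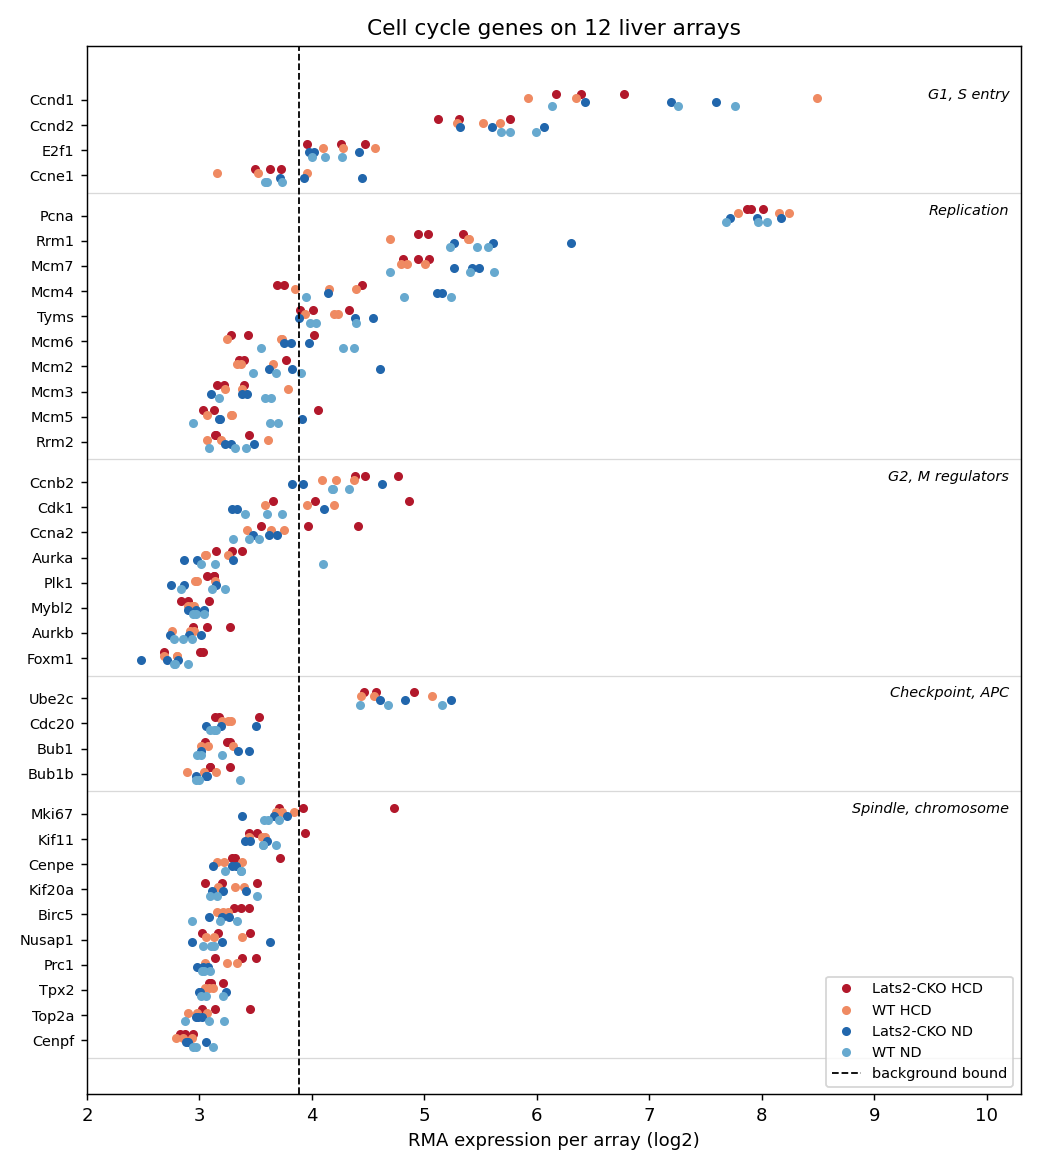
Each point is 1 array and each row 1 of the 36 measured genes, with RMA expression (log2) on the horizontal axis and genes grouped by role; colours mark the 4 groups and the dashed line is the background bound of 3.88. Only 10 genes have a mean to the right of the line, and the groups overlap in most rows.

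The promoters show what the genes share in sequence. The table of RefSeq promoters (build GRCm38.p6) held 30 windows for 28 of the 36 measured genes, and the 250 bases before each start were searched on both strands. The motifs were the CHR element of mitotic genes (TTTGAA, with TTCGAA as its variant), the CCAAT box, which the factor NF-Y binds, E2F sites (TTGGCGC in its first form, then TTCCCGC in another and TTCGCGC in the last) and the TEAD site of YAP and TAZ (GGAATG). The CCAAT box was present in 80.0% of these windows and in 33.8% of the 32851 windows of all genes, a CHR in 36.7% and 17.1%, an E2F site in 23.3% and 6.69%, and a TEAD site in 10% and 12.6%. Among the windows of G1, S entry and replication genes 5 of 12 held an E2F match and 2 of 12 a CHR match, and among those of G2, mitosis and spindle genes 2 of 18 held an E2F match and 9 of 18 a CHR match. A match is a run of letters and not a bound site. Promoters of 4 genes are printed 5′ to 3′ on the strand of the gene, ending at the base before the start, with every match to the motifs in capitals. Mcm7 is shown as the replication gene called most often when arrays or weights were changed and Mcm6 as a second helicase gene with a window in the table, and Cdk1 and Ccnb2 for mitotic genes, whose fitted diet change in Lats2-CKO mice had the opposite sign. They lie on the minus strand at chr5:138171884-138172133 (Mcm7, the more upstream of its 2 windows), chr1:128359706-128359955 (Mcm6), chr10:69352913-69353162 (Cdk1) and chr9:70421555-70421804 (Ccnb2).
Mcm7: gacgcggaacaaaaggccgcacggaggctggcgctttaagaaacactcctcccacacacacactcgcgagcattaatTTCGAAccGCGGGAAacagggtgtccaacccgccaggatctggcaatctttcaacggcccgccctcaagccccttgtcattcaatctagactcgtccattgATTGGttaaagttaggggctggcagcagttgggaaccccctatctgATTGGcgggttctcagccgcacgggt
Mcm6: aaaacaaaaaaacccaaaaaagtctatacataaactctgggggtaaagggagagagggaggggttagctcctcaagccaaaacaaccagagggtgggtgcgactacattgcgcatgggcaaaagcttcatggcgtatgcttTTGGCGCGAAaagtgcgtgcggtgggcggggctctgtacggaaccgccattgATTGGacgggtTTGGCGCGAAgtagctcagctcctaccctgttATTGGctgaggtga
Cdk1: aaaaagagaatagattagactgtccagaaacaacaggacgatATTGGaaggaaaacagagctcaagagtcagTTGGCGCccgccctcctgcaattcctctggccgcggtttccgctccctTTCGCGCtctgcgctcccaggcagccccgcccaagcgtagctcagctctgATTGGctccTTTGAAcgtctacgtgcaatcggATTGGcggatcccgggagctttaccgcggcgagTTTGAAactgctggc
Ccnb2: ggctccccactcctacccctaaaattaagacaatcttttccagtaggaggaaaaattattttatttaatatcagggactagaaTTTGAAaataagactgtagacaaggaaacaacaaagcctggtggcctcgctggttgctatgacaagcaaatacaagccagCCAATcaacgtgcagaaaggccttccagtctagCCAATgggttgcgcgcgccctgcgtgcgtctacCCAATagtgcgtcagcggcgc
The capitals in Mcm7 are a CHR, an E2F match and 2 CCAAT boxes. Mcm6 has 4 E2F matches, which overlap in pairs, and 2 CCAAT boxes but no CHR match. Cdk1 holds 2 CHR, 3 CCAAT and 2 E2F matches, and Ccnb2 holds 1 CHR and 3 CCAAT matches and no E2F match. None of the 4 has a TEAD match in this window.

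Across the genotype and diet comparisons, none of the 36 genes passed the threshold of an adjusted p of 0.05 in limma when all 12 arrays were used. Their smallest adjusted p was 0.234 for the diet in Lats2-CKO mice, 0.511 for the diet in WT mice, 0.148 for the diet over both genotypes, 0.639 for genotype on ND, 1 for genotype on HCD, 0.834 for genotype over both diets and 0.929 for the interaction (limma). Of all 22180 genes, 0.271% passed for the diet in Lats2-CKO mice, 0% for the diet in WT mice, 1.24% for the diet over both genotypes, 0.0135% for genotype on ND, 0% for genotype on HCD, 0.00451% for genotype over both diets and 0.00451% for the interaction. At an unadjusted p of 0.05, 2 genes were higher and 4 lower for the diet in Lats2-CKO mice (against 13.4% of all genes), 0 for the diet in WT mice (10.6%), and 1 higher and 5 lower over both genotypes (18%). No gene of the group reached it for genotype on ND (8.99%), genotype on HCD (2.93%), genotype over both diets (5.97%) or the interaction (5.62%). The median change of the 36 genes lay between -0.04 and 0.06 in all 7 comparisons, and that of all genes between -0.02 and 0.01.

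Replication genes made up 10 of the 18 genes of lower fitted level on the high-cholesterol diet in Lats2-CKO mice, and 7 of 22 in WT mice. In Lats2-CKO mice all 10 replication and nucleotide supply genes had fitted levels below those on ND, with a median change of -0.23, against -0.02 for all genes. The median change in WT mice was -0.22. The Mcm genes encode subunits of the replicative helicase, Rrm1 the large subunit of ribonucleotide reductase, and Pcna the sliding clamp of the DNA polymerases.

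Mcm7 read 4.81, 4.95 and 5.04 in Lats2-CKO HCD livers, against 5.27, 5.42 and 5.48 in Lats2-CKO ND livers. The groups did not overlap, and the change was -0.46 ± 0.19 (SE), a ratio of 0.728 (limma, adjusted p = 0.334). In WT HCD livers Mcm7 read 4.79, 5.01 and 4.85, against 5.62, 5.40 and 4.70 in WT ND livers. Here WT ND 3 was the lowest of all 12 arrays while the other WT ND arrays lay above every HCD array, and the change was -0.36 ± 0.19 (limma, adjusted p = 0.553), or -0.17 ± 0.18 without WT ND 1 (limma, adjusted p = 0.976). Without WT ND 3, Mcm7 fell in WT mice by 0.63 ± 0.12 (limma, adjusted p = 0.0306) and over both genotypes by 0.54 ± 0.08 (limma, adjusted p = 0.0044). In Lats2-CKO mice the size was unchanged, -0.46 ± 0.11, and short of the threshold (limma, adjusted p = 0.0634). With the array sets as a block and without WT ND 3, Mcm7 also fell in Lats2-CKO mice, by 0.51 ± 0.10 (limma, adjusted p = 0.0325), as 1 of 36 genes where 2.58% of all genes passed; under that setting 1.69% passed in WT mice and 5.54% over both genotypes. Within the array sets the Mcm7 difference by diet in Lats2-CKO mice was -0.54 among the higher arrays and -0.49 among the lower ones. In WT mice it was -0.72 among the higher arrays and 0.23 among the lower ones, where WT ND 3 is the only ND array of that genotype.

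Mcm4 read 3.75, 4.45 and 3.69 in Lats2-CKO HCD livers, against 5.15, 4.14 and 5.11 in Lats2-CKO ND livers. It read 3.85, 4.39 and 4.15 in WT HCD livers, against 5.23, 4.82 and 3.95 in WT ND livers. The groups overlapped in both genotypes, through array 2 in Lats2-CKO mice and through WT ND 3 in WT mice. The changes were -0.84 ± 0.36 in Lats2-CKO mice (limma, adjusted p = 0.339) and -0.54 ± 0.36 in WT mice (limma, adjusted p = 0.636), the WT value being -0.90 ± 0.33 without WT ND 3 (limma, adjusted p = 0.197) and -0.25 ± 0.37 without WT ND 1 (limma, adjusted p = 0.986). Without WT ND 3, Mcm4 fell over both genotypes by 0.87 ± 0.22 (limma, adjusted p = 0.0433), and the fall of 1.07 ± 0.23 passed as well with the array sets as a block (limma, adjusted p = 0.0331). Mcm7 and Mcm4 were then 2 of 36 genes past the threshold over both genotypes, at a background of 7.24% of all genes, so the share is close to that of the whole array. Within each genotype without WT ND 3 the background was 2.33% in WT mice, where Mcm7 was the 1 gene called, and 2.11% in Lats2-CKO mice, where 0 were. With array weights, Mcm7 alone of the 36 passed over both genotypes, where 6.18% of all genes did. With both WT ND 3 and Lats2-CKO HCD 2 left out, 1 of 36 passed in WT mice and 3 over both genotypes, beside 1.66% and 5.35% of all genes.

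Mcm6 read 3.28, 4.02 and 3.44 in Lats2-CKO HCD and 3.72, 3.74 and 3.25 in WT HCD livers, against 3.81, 3.75 and 3.97 in Lats2-CKO ND and 4.37, 4.28 and 3.54 in WT ND livers. Its 2 highest arrays were WT ND 1 and WT ND 2, and its change in WT mice was -0.50 ± 0.24 (limma, adjusted p = 0.511), or -0.76 ± 0.22 without WT ND 3 (limma, adjusted p = 0.105). Mcm2 read 3.40, 3.77 and 3.35 in Lats2-CKO HCD and 3.65, 3.37 and 3.33 in WT HCD livers, against 3.62, 3.82 and 4.60 in Lats2-CKO ND and 3.90, 3.68 and 3.47 in WT ND livers. A single array, Lats2-CKO ND 3, stood above the rest, and the change in Lats2-CKO mice was -0.51 ± 0.23 (limma, adjusted p = 0.370), or -0.21 ± 0.17 without that array (limma, adjusted p = 0.631). Mcm5 read between 2.94 and 4.06 and Mcm3 between 3.11 and 3.79, with overlapping groups.

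Rrm1 read 4.94, 5.34 and 5.03 in Lats2-CKO HCD livers, against 6.30, 5.26 and 5.61 in Lats2-CKO ND livers, and the change of -0.62 ± 0.26 included the highest of the 12 arrays, Lats2-CKO ND 1 (limma, adjusted p = 0.330). Without that array it was -0.33 ± 0.23 (limma, adjusted p = 0.621). In WT mice it read 5.39, 5.39 and 4.69 on HCD, against 5.56, 5.47 and 5.23 on ND. Pcna differed less: it read 7.87, 7.91 and 8.01 in Lats2-CKO HCD and 7.79, 8.25 and 8.15 in WT HCD livers, against 7.71, 8.17 and 7.95 in Lats2-CKO ND and 7.97, 8.05 and 7.68 in WT ND livers. Its diet change was -0.02 in Lats2-CKO mice, with a 95% interval of -0.35 to 0.32, and 0.16 in WT mice, with an interval of -0.17 to 0.50. Tyms, which makes thymidylate, changed by -0.19 ± 0.19 and -0.02 ± 0.19 in the Lats2-CKO and WT mice, and Rrm2, the small subunit gene of ribonucleotide reductase, by -0.09 and 0.02, each short of the threshold. A second probe set of Rrm2 alone had a mean of 3.17, also near background. It read 3.08, 3.05 and 3.17 in Lats2-CKO HCD livers, against 3.24, 3.41 and 3.85 in Lats2-CKO ND livers. In WT mice it read 3.18, 2.98 and 3.11 on HCD, against 2.92, 2.79 and 3.22 on ND. Helicase genes and Rrm1 were lower by fitted value on HCD in both genotypes, except Mcm3 in WT mice, where the fitted difference was 0.00.

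**Figure D2:**
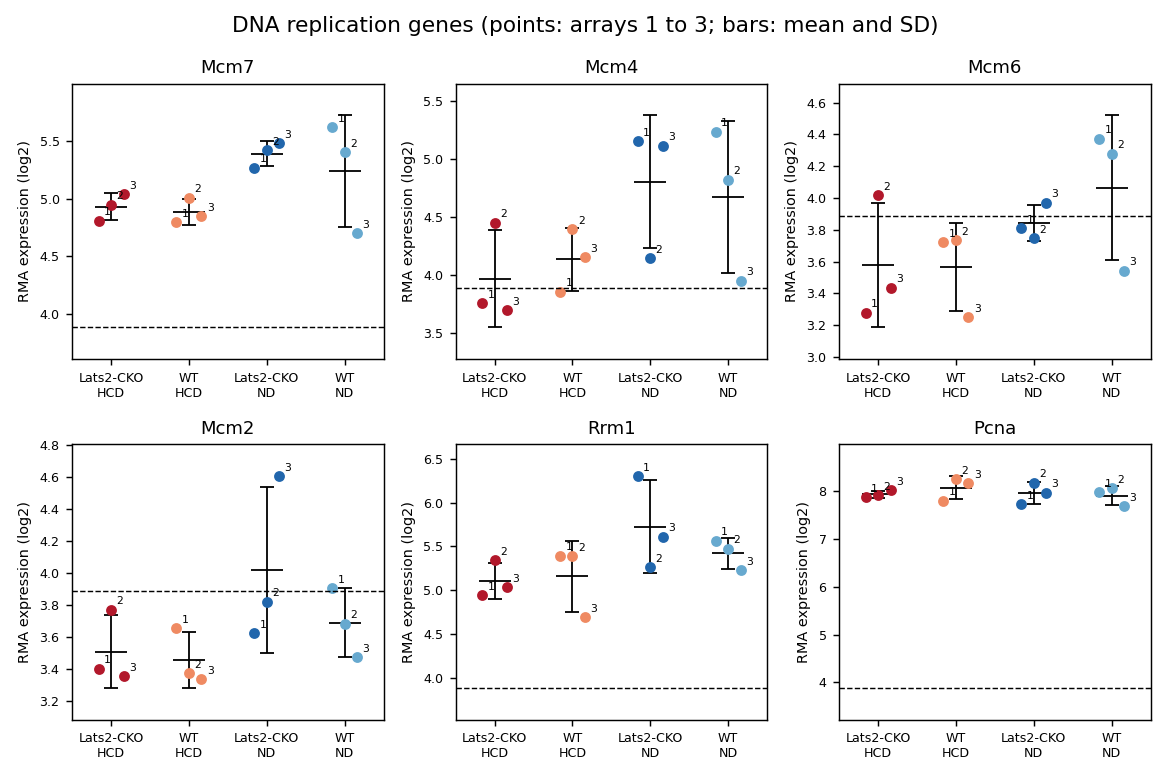
Each panel shows RMA expression (log2) of 1 replication gene by group, with arrays numbered 1 to 3, bars for the mean and SD (n = 3) and a dashed line at the background bound; the vertical scales differ. Mcm7 separates Lats2-CKO HCD (4.81 to 5.04) from Lats2-CKO ND (5.27 to 5.48), WT ND 3 is low for Mcm7 and Mcm4, and Pcna lies between 7.68 and 8.25 in all groups.

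The mitotic regulators had mostly positive fitted changes in Lats2-CKO mice. Of the 8 measured G2 and M kinases, cyclins and factors, 7 had higher fitted levels on HCD than on ND in that genotype, with a median change of 0.23, and 3 of 8 did in WT mice, with a median of -0.02. None passed in limma, and the difference between genotypes did not pass for any of them (smallest adjusted p = 0.929, Foxm1, with an interaction of 0.29 ± 0.17).

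Cdk1, the kinase that starts mitosis, read 4.86, 4.03 and 3.65 in Lats2-CKO HCD livers, against 4.11, 3.29 and 3.33 in Lats2-CKO ND livers. It read 3.96, 4.19 and 3.58 in WT HCD livers, against 3.74, 3.40 and 3.60 in WT ND livers. In each Lats2-CKO group array 1 was the highest, and groups overlapped in both genotypes, with changes of 0.60 ± 0.30 in Lats2-CKO mice (limma, adjusted p = 0.429) and 0.33 ± 0.30 in WT mice (limma, adjusted p = 0.751). Without Lats2-CKO HCD 1 the change in Lats2-CKO mice was 0.26 ± 0.26 (limma, adjusted p = 0.731). Ccnb2 (cyclin B2) read 4.76, 4.48 and 4.38 in Lats2-CKO HCD and 4.21, 4.38 and 4.09 in WT HCD livers, against 4.63, 3.82 and 3.92 in Lats2-CKO ND and 4.33, 4.18 and 4.19 in WT ND livers. All Lats2-CKO HCD arrays lay above all WT HCD arrays, by a mean of 0.31 ± 0.19 (limma, adjusted p = 1). Ccna2 (cyclin A2) read 3.96, 4.41 and 3.55 in Lats2-CKO HCD and 3.75, 3.63 and 3.42 in WT HCD livers, against 3.47, 3.69 and 3.62 in Lats2-CKO ND and 3.30, 3.44 and 3.53 in WT ND livers. Its groups overlapped on both diets, and it had the smallest unadjusted p of the 36 genes for genotype on HCD (0.0695) and for genotype over both diets (0.0619). Foxm1, a factor that drives mitotic genes, read between 2.48 and 3.03, within background on every array, and the Aurora kinase gene Aurka exceeded the bound on 1 array, WT ND 1, at 4.10.

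Mki67, whose protein Ki-67 marks cycling cells, read 3.92, 4.73 and 3.71 in Lats2-CKO HCD livers, against 3.78, 3.66 and 3.38 in Lats2-CKO ND livers. It read 3.84, 3.68 and 3.74 in WT HCD livers, against 3.71, 3.57 and 3.61 in WT ND livers. Lats2-CKO HCD 2 was the highest array, and 10 of the 12 arrays lay below the background bound, with Lats2-CKO HCD 1 the other one above it. The change in Lats2-CKO mice was 0.51 ± 0.21 (limma, adjusted p = 0.328), and without Lats2-CKO HCD 2 it was 0.21 ± 0.13 (limma, adjusted p = 0.620). The interval of the Mki67 change in WT mice ran from -0.35 to 0.60. Top2a, the DNA topoisomerase of dividing cells, read 3.14, 3.45 and 3.02 in Lats2-CKO HCD and 2.98, 3.06 and 2.90 in WT HCD livers, against 3.02, 2.99 and 2.97 in Lats2-CKO ND and 3.22, 2.87 and 3.08 in WT ND livers. Every Top2a array lay below the bound, and Lats2-CKO HCD 2 was again the highest.

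Of the other spindle and midzone genes, all near background, Prc1, which crosslinks microtubules of the midzone, had the smallest p of the 36 genes for the diet in Lats2-CKO mice. It read 3.14, 3.50 and 3.37 in Lats2-CKO HCD and 3.33, 3.05 and 3.25 in WT HCD livers, against 3.03, 3.08 and 2.98 in Lats2-CKO ND and 3.04, 3.10 and 3.03 in WT ND livers. The Lats2-CKO groups did not overlap and the WT groups did, with changes of 0.31 ± 0.11 in Lats2-CKO mice (limma, adjusted p = 0.234) and 0.16 ± 0.11 in WT mice (limma, adjusted p = 0.656). Birc5 (survivin, of the chromosomal passenger complex) read 3.31, 3.37 and 3.44 in Lats2-CKO HCD livers, above the 3.26, 3.21 and 3.15 of WT HCD livers and the 3.26, 3.09 and 3.20 of Lats2-CKO ND livers. The motor and kinetochore genes Kif11, Kif20a, Cenpe and Cenpf and the spindle genes Nusap1 and Tpx2 had ranges over the 12 arrays of 0.24 (Tpx2) to 0.69 (Nusap1). Of the checkpoint genes, Bub1, Bub1b and Cdc20 stayed between 2.89 and 3.53, below the bound on every array. Ube2c read 4.91, 4.57 and 4.47 in Lats2-CKO HCD and 4.43, 5.07 and 4.55 in WT HCD livers, against 5.23, 4.83 and 4.61 in Lats2-CKO ND and 5.15, 4.68 and 4.42 in WT ND livers. These groups overlapped in every comparison, and its diet changes were -0.24 ± 0.23 in Lats2-CKO and -0.07 ± 0.23 in WT mice, both short of the threshold.

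**Figure D3:**
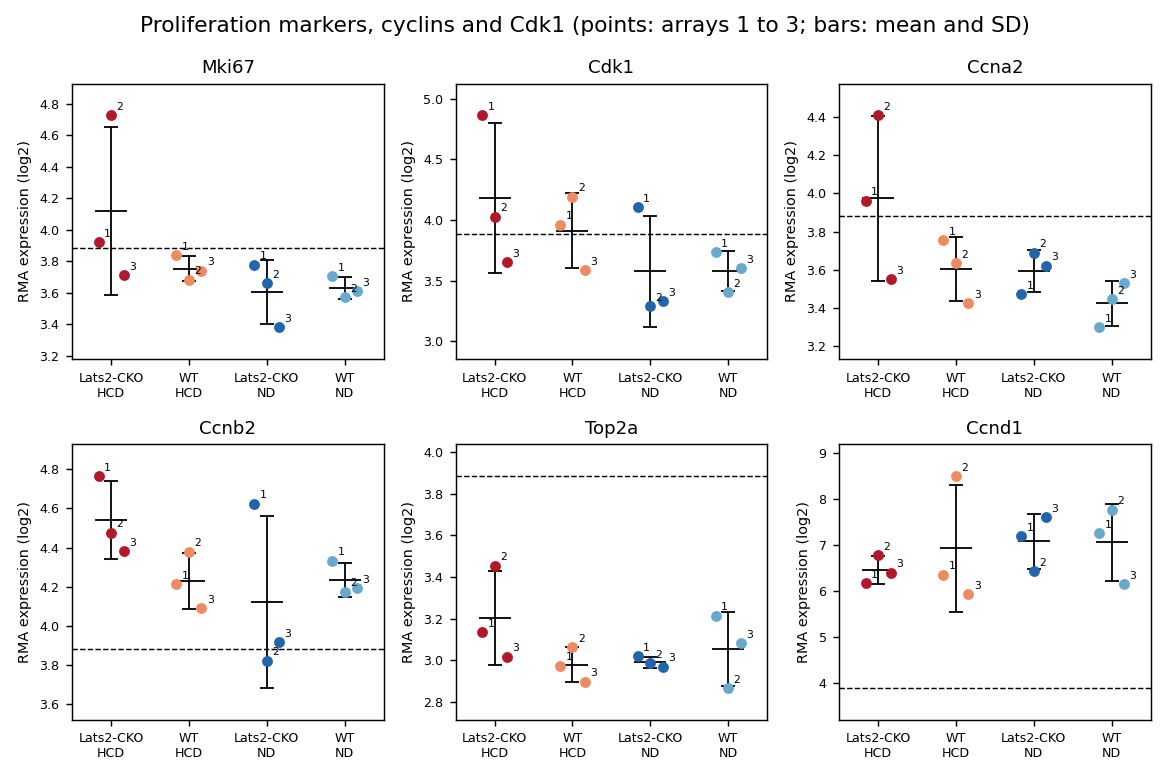
Each panel shows RMA expression (log2) of 1 gene by group, with arrays numbered 1 to 3, bars for the mean and SD (n = 3) and a dashed line at the background bound; the vertical scales differ. Lats2-CKO HCD 2 is the highest array for Mki67 (4.73), Ccna2 (4.41) and Top2a (3.45), and WT HCD 2 the highest for Ccnd1 (8.49).

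The highest values were unevenly spread over the arrays. Lats2-CKO HCD 2 was the highest of the 12 arrays for 9 of the 36 genes (25.0%), against 4.76% of all genes, and for 0 of the 10 genes above the bound. The 9 were Mcm5, Ccna2, Aurkb, Foxm1, Mybl2, Mki67, Top2a, Kif11 and Prc1. WT ND 1 was the highest for 8 genes (22.2%, against 11.6% of all genes), and WT ND 3 for 0, while WT ND 3 was the lowest for 5 and Lats2-CKO ND 2 for 8. On Lats2-CKO HCD 2 the mean of the macrophage marker list was 6.73, inside the range of 6.32 to 6.86 of its group. The means of the B cell, T and NK cell and erythroid lists on that array were 3.08, 3.27 and 2.92, below the bound. The T and NK cell mean lay below the bound on all 12 arrays, and only WT HCD 1 (3.51) had a higher one. Lats2-CKO HCD 2 had the lowest endothelial mean (7.08) and the lowest stellate cell mean (5.76) of the 12, and the part of these cells in its high values was not tested. In whole liver, fewer cells of a type and less RNA per cell cannot be told apart.

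Of the G1 genes, Ccnd1, Ccnd2 and E2f1 lay above background and Ccne1 near it. Ccnd1 (cyclin D1), a partner of Cdk4 and a gene that rises in regenerating liver, read 6.17, 6.78 and 6.39 in Lats2-CKO HCD livers, against 7.19, 6.43 and 7.59 in Lats2-CKO ND livers. It read 6.35, 8.49 and 5.92 in WT HCD livers, against 7.25, 7.76 and 6.14 in WT ND livers. The 12 arrays spanned 2.57, the widest range of the 36 genes, and the groups overlapped. The diet changes were -0.62 ± 0.61 in Lats2-CKO and -0.13 ± 0.61 in WT mice (limma, adjusted p = 0.724 and 0.966), and the interval in Lats2-CKO mice ran from -1.97 to 0.72. Without WT HCD 2 the change in WT mice was -0.91 ± 0.45 (limma, adjusted p = 0.648), and without WT HCD 3 it was 0.37 ± 0.62 (limma, adjusted p = 0.910). Array WT HCD 2, the highest for Ccnd1, also had the highest mean of the macrophage markers (8.23, against 5.97 to 7.40 on the other arrays) and of the B cell markers (4.48, against 2.98 to 3.41); their part in the Ccnd1 value was not tested. Ccnd2 (cyclin D2) read 5.13, 5.77 and 5.31 in Lats2-CKO HCD and 5.52, 5.67 and 5.29 in WT HCD livers, against 5.60, 5.32 and 6.06 in Lats2-CKO ND and 5.76, 6.0 and 5.68 in WT ND livers. The WT groups did not overlap, and the change there was -0.32 ± 0.21 (limma, adjusted p = 0.629). E2f1, the activator of S phase genes, read 3.96 to 4.47 in Lats2-CKO HCD and 4.10 to 4.56 in WT HCD livers, and 3.98 to 4.42 over the ND livers of both genotypes. Its diet changes were 0.09 ± 0.17 and 0.18 ± 0.17 in Lats2-CKO and WT mice. Ccne1 (cyclin E1) read 3.49, 3.72 and 3.63 in Lats2-CKO HCD and 3.16, 3.96 and 3.52 in WT HCD livers, against 3.93, 3.72 and 4.44 in Lats2-CKO ND and 3.74, 3.59 and 3.60 in WT ND livers. It had the smallest p of the 36 genes for genotype on ND, where the difference was 0.39 ± 0.21 (limma, adjusted p = 0.639) and array Lats2-CKO ND 3 was the highest; without it the difference was 0.18 ± 0.20 (limma, adjusted p = 0.852).

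**Figure D4:**
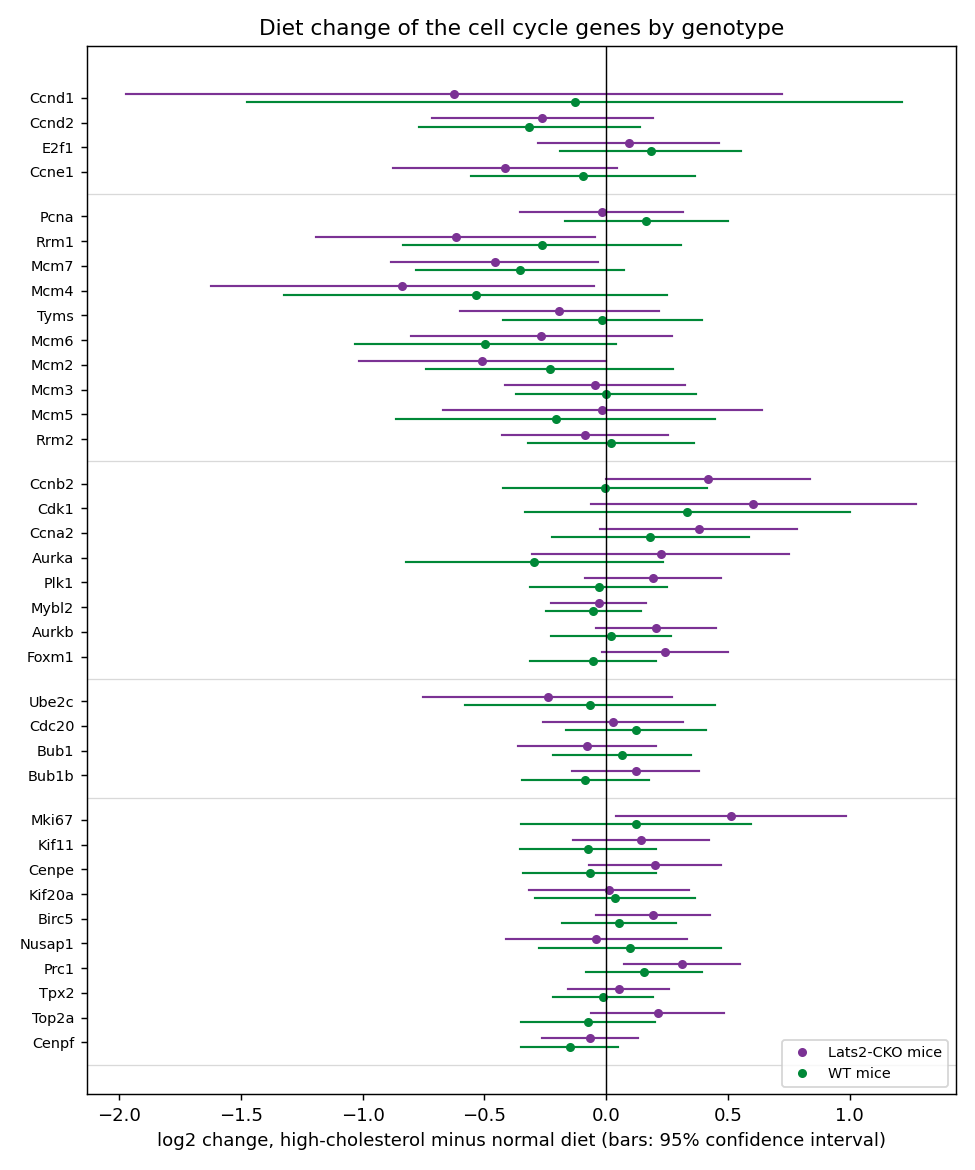
Points are the log2 change on the high-cholesterol against the normal diet for each of the 36 genes, with 95% confidence intervals from limma, Lats2-CKO mice above WT mice in each row. Most intervals cross 0, and the replication genes Mcm7, Mcm4, Mcm2 and Rrm1 lie left of 0 and Mki67 and Prc1 right of it in Lats2-CKO mice before adjustment.

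None of the 36 genes passed between the genotypes (limma). The median difference of Lats2-CKO from WT was -0.001 on ND and 0.05 on HCD, against 0.00 and 0.01 for all genes. On ND, 18 of 36 genes were higher and 18 lower by fitted value in Lats2-CKO livers. On HCD, 25 were higher and 11 lower, with all 8 of the G2 and M genes and 9 of the 10 spindle genes on the higher side, and none passed (limma, smallest adjusted p = 1). By mean level, 7 of the 8 G2 and M genes and all 10 spindle genes lay at or below background. Values were also centred on the mean of each gene over all arrays. The G2 and M genes then averaged 0.29, 0.26 and -0.03 on Lats2-CKO HCD 1, 2 and 3, against -0.10 to 0.05 in WT HCD. The spindle genes averaged 0.09, 0.24 and -0.03 on those Lats2-CKO arrays, against -0.04 to 0.02 in WT HCD. Lats2-CKO HCD 3 thus lay inside the WT HCD range for both sets. The highest fitted differences on HCD were Ccna2 at 0.37 ± 0.18 and Mki67 at 0.37 ± 0.21. Lats2-CKO HCD 2 was the highest array for both, and without it, Ccna2 differed by 0.15 ± 0.15 and Mki67 by 0.06 ± 0.13. The 95% interval of the genotype difference lay within a 2-fold change either way for 35 of 36 genes on ND and 35 of 36 on HCD, all but Ccnd1. All 26 genes at or below background were among the 35 on each diet. Signal is compressed there, so for those genes the interval does not bound the change in transcript. Groups that did not overlap were seen for 4 genes in the diet comparison of Lats2-CKO mice (Bub1b, Birc5, Prc1 and Mcm7, against 19.5% of all genes) and 3 in that of WT mice (Cdc20, Ccnd2 and Cenpf, against 13.8%). For genotype they were seen for 0 genes on ND (13.3%) and 2 on HCD (Ccnb2 and Birc5, against 7.44%). The 2 diet comparisons do not share samples, and 22 of 36 genes (61.1%) had the same sign in both, against 62.5% of all genes.

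Markers of other liver cells were read on the same arrays. All but 1 of the 12 macrophage and Kupffer cell markers lay above background, Itgam being the exception, and their mean was 6.32 to 6.86 in Lats2-CKO HCD and 6.54 to 8.23 in WT HCD livers, against 5.97 to 6.14 in Lats2-CKO ND and 6.29 to 6.68 in WT ND livers. Clec4f, a Kupffer cell receptor, and Cd5l, a secreted macrophage protein, rose over both genotypes by 0.53 ± 0.09 and 1.78 ± 0.32 (limma, adjusted p = 0.0327 and 0.0380). These were 2 of 12, of which 11 were higher and 1 lower by fitted value, the lowest at -0.87, with a median change of 0.87. Of the 8 endothelial markers, Tek, an angiopoietin receptor gene, fell over both genotypes by 0.42 ± 0.07 (limma, adjusted p = 0.0369). In that list 3 were higher and 5 lower by fitted value, with a median change of -0.07. Of all genes, 1.24% passed in that comparison. By genotype, 7 of the 8 were lower in Lats2-CKO livers on HCD and 5 on ND at an unadjusted p of 0.05 (limma). None of them passed after adjustment, and 2.93% and 8.99% of all genes reached that unadjusted p. None of the 7 B cell, 10 T and NK cell or 3 erythroid markers measured had a mean above background. Endothelial and stellate markers lay above background, 8 of 8 and 8 of 9; the endothelial mean was 7.08 to 7.37 in Lats2-CKO HCD and 7.61 to 7.75 in WT HCD livers, against 7.12 to 7.36 in Lats2-CKO ND and 7.70 to 7.77 in WT ND livers. The mean of the B cell list was 3.08 to 3.34 in Lats2-CKO HCD and 3.06 to 4.48 in WT HCD livers, against 2.98 to 3.05 in Lats2-CKO ND and 3.15 to 3.22 in WT ND livers. The part of these cells in the differences of the cell cycle genes was not tested.

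Other genes of the cell cycle machinery, from 5 lists, were read beside them. Of 36 other replication genes, 58 other mitosis and cytokinesis genes, 16 CDK inhibitors and RB family genes, 23 other cyclins, CDKs and E2F factors and 21 hepatocyte mitogens and receptors, 0 passed in any of the 7 comparisons with all arrays (limma). In the same order, 22, 46, 5, 3 and 9 of them had a mean at or below background. At an unadjusted p of 0.05, the diet over both genotypes gave 0 higher and 8 lower of the replication genes, 4 higher and 4 lower of the mitosis and cytokinesis genes, 4 higher and 0 lower of the CDK inhibitors and RB family genes, 2 higher and 6 lower of the cyclins, CDKs and E2F factors, and 2 higher and 3 lower of the mitogens and receptors, against 18% of all genes. The closest, over both genotypes, were Pttg1 (securin, which holds separase inactive) at 0.74 ± 0.16 (limma, adjusted p = 0.0513) and Btg1, an antiproliferative gene, at 0.68 ± 0.15 (limma, adjusted p = 0.0517). Pttg1 read 4.55, 4.01 and 4.15 in Lats2-CKO HCD livers, against 2.81, 3.65 and 3.24 in Lats2-CKO ND livers. In WT mice it read 3.80, 4.20 and 4.33 on HCD, against 3.87, 3.53 and 3.48 on ND. The Lats2-CKO groups did not overlap, and the WT groups overlapped by 1 array each. Btg1 read 5.77, 5.58 and 5.77 in Lats2-CKO HCD livers, against 4.77, 5.19 and 4.90 in Lats2-CKO ND livers, and in WT mice 5.63, 6.12 and 6.16 on HCD, against 4.97, 5.29 and 5.80 on ND, where WT ND 3 was again nearest to the HCD arrays.

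Without WT ND 3, 17 genes of these lists, which hold 36, 58, 16, 23 and 21 genes, passed over both genotypes. That array was singled out for its likeness to an HCD array, so leaving it out tends to enlarge diet differences. The replication genes that passed were on the lower side on HCD: Pold2, a subunit of DNA polymerase delta, fell by 1.10 ± 0.13 (limma, adjusted p = 0.00131), its catalytic subunit gene Pold1 by 0.34 ± 0.08 (limma, adjusted p = 0.0268), Dut, which clears dUTP, by 0.49 ± 0.08 (limma, adjusted p = 0.00788), and Rfc3, of the clamp loader, by 0.46 ± 0.10 (limma, adjusted p = 0.0248). These were 4 of 36, and none of that list passed as higher. With all arrays, 13 of the 36 were higher and 23 lower by fitted value over both genotypes, the highest at 0.57. Pold1 lay near background, with a mean of 3.19. Pold2 read 5.97, 6.37 and 6.09 in Lats2-CKO HCD and 6.23, 5.94 and 5.94 in WT HCD livers, against 7.22, 6.64 and 6.82 in Lats2-CKO ND and 7.65, 7.31 and 6.26 in WT ND livers. Only WT ND 3 of the ND arrays lay among the HCD values. Of the brakes on the cycle, Btg1, Cdkn2c (p18, an inhibitor of Cdk4 and Cdk6) and Rbl2 (p130, the RB family protein of quiescent cells) rose by 0.79 ± 0.12, 0.90 ± 0.16 and 0.46 ± 0.11 (limma, adjusted p = 0.0053, 0.00799 and 0.0310). These were 3 of 16, and no gene of that list passed as lower. With all arrays, 12 of the 16 were higher and 4 lower by fitted value over both genotypes, the lowest at -0.77. The array left out read 5.34 for Cdkn2c, the highest of the 12, and 7.96 for Rbl2, above every other ND array. Leaving it out therefore enlarges both rises. Among cyclins and E2F factors Ccnd3, E2f6 and Lin52 fell and Ccng2 rose, among mitotic genes Pttg1, Esco2 and Anln rose and Bub3 fell, and the receptor genes Erbb3 and Met rose. Pttg1, Esco2 and Anln had means of 3.80, 3.44 and 3.10, below the background bound. Beside these 17 genes, 7.24% of all genes passed under the same setting.

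**Figure D5:**
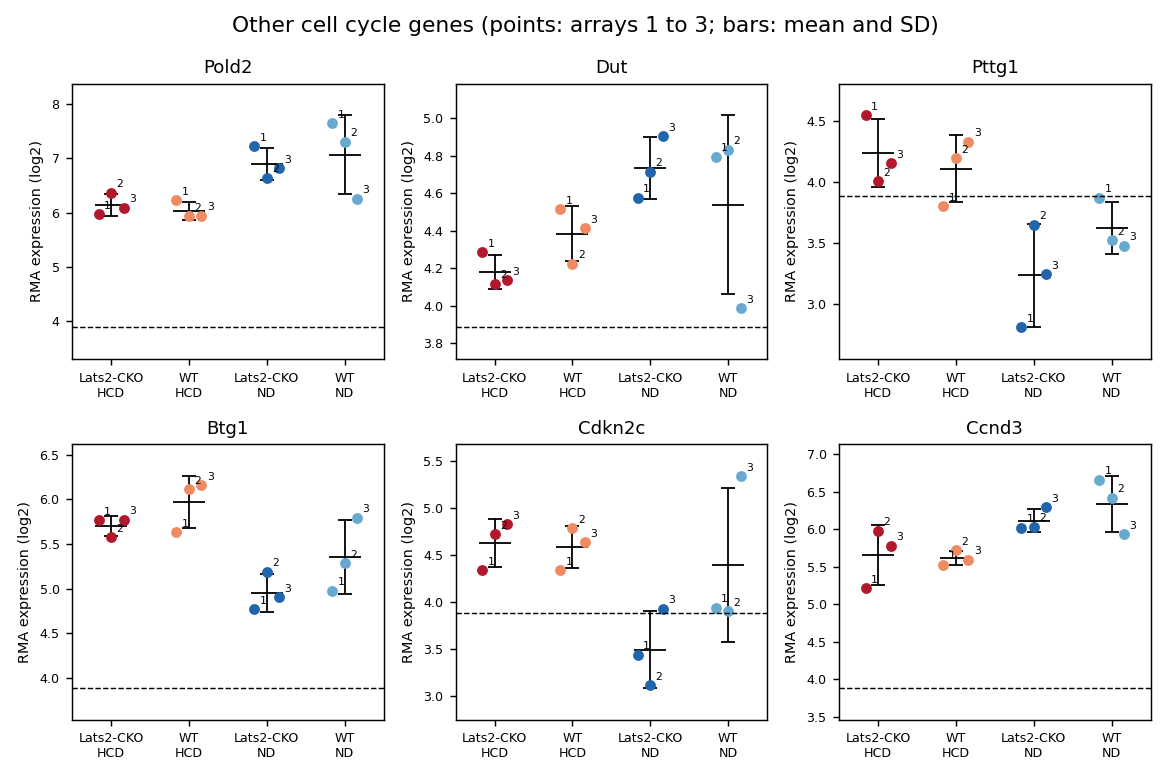
Each panel shows RMA expression (log2) of 1 gene outside the group by group, with arrays numbered 1 to 3, bars for the mean and SD (n = 3) and a dashed line at the background bound; the vertical scales differ. Pold2, Dut and Ccnd3 are lower and Pttg1 and Btg1 higher on HCD in Lats2-CKO mice, and WT ND 3 sits among the HCD arrays for Pold2 and Btg1 and above all other arrays for Cdkn2c.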

How the data were processed

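Liver RNA of 12 mice was read on 1 array each. The deposited values are log2 expression that, per the submitters' processing notes, the authors computed with Partek 6.6 and RMA; the log2 scale was taken from their range of 1.94 to 14.2, and RMA settings, genome build and filters are not given in the sources used here. Arrays carry no read depth, so precision is limited by 3 arrays a group.

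Of 41345 probe sets, 23521 had 1 gene symbol, 1814 several and 16010 none in the platform annotation, and 23328 symbols were updated by Entrez identifier, giving 22180 genes. A gene took its probe set with the highest mean. In 1 limma fit (3.58.1, R 4.3.3) over the 4 group means of 12 arrays, 7 contrasts were tested with Benjamini-Hochberg adjustment over all genes, at 0.05. A ± beside a change is its standard error. Python 3.11.15 (numpy 2.4.6, pandas 2.3.3, matplotlib 3.10.9) did the rest. Promoter sequences are from RefSeq, and no coordinates were given by the arrays.

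The genes of the group, the pathway and marker lists and the tests were chosen with earlier results of these data known. Named genes were those past the threshold, otherwise the 5 of smallest unadjusted p above background in at least 1 group, 12 proliferation genes named whatever their result (Mki67, Top2a, Cdk1, Ccna2, Ccnb1, Ccnd1, Ccne1, Mcm2, Mcm5, Pcna, Foxm1 and E2f1), and, of each pathway list, those past the threshold or else the 2 of smallest p; the other genes named were chosen after their values were seen. On simulated data, 100 of 22180 genes changed by 1 on the log2 scale and 100 by 2 were recovered at 75% and 93% for the diet in Lats2-CKO mice, 75% and 95% for the diet in WT mice, 74% and 94% for genotype on ND and 73% and 97% for genotype on HCD, and 4.55%, 6.59%, 7.18% and 7.10% of the calls in those comparisons were false. The changed genes were drawn at random from all genes, with independent normal noise and no effects shared by arrays. These rates therefore need not hold for the 36 genes. Their median SE for the diet in Lats2-CKO mice was 0.168, against 0.140 for all genes. Alternatives covered the samples in the fit, replicate and array-set blocks, the variance prior, array weights, normalization, dim genes, probe set choice and each array left out.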

Additional observations from a re-analysis of the deposited data

How the results depend on the processing

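Limits are 3 arrays a group and the low signal of 26 of 36 genes. Over 23 settings the median change of the 36 genes moved by less than the spread between arrays in all 158 values. That spread was larger than each median, so this says little about their size or sign. The median ranged from -0.02 to 0.08 for the diet in Lats2-CKO mice and from -0.07 to 0.04 in WT mice. Members past the threshold differed from the 0 found with all arrays in 8 of 158 values. Leaving out 1 array gave 0 to 1 for the diet in WT mice and 0 to 2 over both genotypes, the higher values being without WT ND 3. Array weights gave 1 over both genotypes (Mcm7, limma, adjusted p = 0.0438). Array sets as a block without WT ND 3 gave 1 in Lats2-CKO mice, 1 in WT mice and 2 over both, and leaving out WT ND 3 and Lats2-CKO HCD 2 together gave 1 in WT mice and 3 over both, Mcm6 joining at -0.62 ± 0.11 (limma, adjusted p = 0.0157); both settings were chosen after seeing the data. All genes passed at 6.18% with array weights, at 2.58%, 1.69% and 5.54% with the block, and at 1.66% and 5.35% with both arrays out, in the order of those counts. Of 790 values of named genes, 777 kept direction and side of the threshold, 12 came past it and 1 reversed: Cdk1 for genotype on HCD was -0.0742 without Lats2-CKO HCD replicate 1, and leaving out 1 array gave -0.0742 to 0.531. The cause was not tested. The replicate block gave 0 members past the threshold in each of the 7 comparisons, as did the array sets as a block alone. Arrays of the same number correlated at 0.0024 to 0.176 in their deviations (18 pairs, 7 over 0.1), and those of other numbers at -0.227 to 0.182 (36 pairs, 1 over 0.1). Of the 12 arrays, 11 correlated best with their own number. All arrays numbered 1 were in the higher set by median and all numbered 3 in the lower. The main fit did not pair samples by number, which only the replicate block did. Over all genes, calls moved more: with 1 array left out they numbered 5 to 468 for the diet in Lats2-CKO mice (60 with all arrays), 0 to 516 in WT mice (0), 6 to 1605 over both genotypes (274), 3 to 17 for genotype on ND (3), 0 to 22 on HCD (0), 1 to 8 over both diets (1) and 1 to 2 for the interaction (1). Under the other settings they numbered 33 to 573, 0 to 374, 43 to 1371, 1 to 11, 0, 1 to 3 and 1 to 3 in the same order.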

Other observations

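Some genes of the group also have probe sets annotated with a second gene, which entered no comparison. Ccne2, which had no probe set of its own, shares one with Ints8, and it read 4.24, 4.16 and 4.36 in Lats2-CKO HCD and 3.89, 4.67 and 3.95 in WT HCD livers, against 4.83, 4.45 and 5.01 in Lats2-CKO ND and 5.48, 4.74 and 4.28 in WT ND livers. The Lats2-CKO HCD arrays lay below all Lats2-CKO ND arrays, and which of the 2 genes the signal comes from cannot be told apart. Top2a shares 2 probe sets with Taf1d, whose means over the 12 arrays were 4.67 and 5.66, against 3.06 for the probe set of Top2a alone.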
